A study of Mus musculus with 6 samples.

Results

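The genes described here are 10 members of the tumor necrosis factor (TNF) and interleukin-1 (IL-1) systems: the ligand genes Tnf, Il1a, Il1b and Il18, the antagonist gene Il1rn, the receptor genes Il1rap, Tnfrsf1a and Tnfrsf1b, and the adaptor genes Traf1 and Traf2. They were chosen by symbol, and all 10 were found among the 11789 genes of the deposited table. RNA was sequenced from alveolar macrophages, the phagocytes that live in the air spaces of the lung. The table holds 3 libraries of A20 conditional knockout mice, A20-1, A20-3 and A20-4, and 3 of wild-type mice, BLM1, BLM2 and BLM3, and values of single libraries are given in this order. All mice were C57BL/6, and both groups had been exposed to an agent that the labels abbreviate as BLM, so no unexposed group was compared. The labels name no Cre driver, deleted exon, dose, day, age or sex, no sort by which the cells were isolated, and no statement that a library is a single animal. The p-values therefore measure only the spread between these libraries, which may be technical. Levels are FPKM, in which the fragments of a gene are divided by the length of its transcripts and by the size of the library, a unit that allows levels of different genes to be set side by side.

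TNF and the IL-1 cytokines are early alarm signals of macrophages. TNF acts through TNF receptor 1, encoded by Tnfrsf1a, and TNF receptor 2, encoded by Tnfrsf1b, and both recruit adaptors of the TRAF family. IL-1 alpha and IL-1 beta share a receptor complex that needs the accessory chain encoded by Il1rap, and the antagonist encoded by Il1rn occupies the receptor without signalling. IL-1 beta and IL-18 are made as precursors that are cut by caspase-1 after an inflammasome has assembled. A20, the protein encoded by Tnfaip3, is a ubiquitin-editing enzyme that restrains NF-kB signalling downstream of these receptors, and Tnf, Il1a, Il1b and Traf1 are known NF-kB target genes.

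Library BLM3 stood apart from the other 5. Its correlation with BLM1 and BLM2 across genes was 0.926 to 0.936 on the log2(FPKM + 1) scale, against 0.984 between BLM1 and BLM2 and 0.980 to 0.982 among the knockout libraries. The sum of 11 neutrophil markers was 2921 FPKM in BLM3, while it was 130.1 to 180.9 in the knockout libraries and 156.8 and 173 in BLM1 and BLM2. Of the 14 alveolar macrophage markers, all were in the table and above 0 in every library, and 11 of them were lowest in BLM3. Chil3 made up 57.7 to 67.9% of their sum in the knockout and 64.3 to 74.3% in the wild-type libraries. Without Chil3 the sum was 2395 to 2701 FPKM in the knockout and 1040 to 2441 in the wild-type libraries, lowest in BLM3. One of these markers was called with all 6 libraries, Marco, which fell to 8.43 ± 3.57 FPKM in the knockout libraries, against 32.2 ± 5.66 in the wild-type libraries (SD, n = 3 each, log2 difference -1.87, limma adjusted p = 0.0466). Without BLM3, Marco and Lpl were called as lower and Ear1, Krt79 and Cidec as higher. Over all genes tested, 0.851% were called as lower with all 6 libraries, and 2.50% as lower and 1.35% as higher without BLM3. Tnfaip3, the targeted gene, was at 8.44, 12.9 and 6.80 FPKM in the knockout libraries, against 4.47, 2.18 and 21.6 in the wild-type libraries. A two-sided exact permutation test of these values gave p = 1, and 3 libraries against 3 cannot give less than 0.1. Whole-gene FPKM cannot show a deletion of single exons, so these values cannot check the labels. Tnfaip3 showed no fall in the libraries labelled knockout, each of which lay above BLM1 and BLM2 and below BLM3. The groups are therefore compared as labelled, and knockout and wild type mean the libraries labelled so. The columns named BLM were taken as wild type because their names carry no A20.

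Of the 10 genes, 0 passed the test with all 6 libraries (limma, Benjamini-Hochberg adjusted p under 0.05 over the 10696 genes tested), and 3 of 10 had an unadjusted p under 0.05. Over all genes tested, 1.10% were called, 0.851% as lower and 0.252% as higher, and 20.3% had an unadjusted p under 0.05. Without BLM3, 1 of 10 was called, Il1a, which was lower in the knockout libraries, and 4 of 10 had an unadjusted p under 0.05. The shares of all genes were 3.84% called (2.50% lower and 1.35% higher) and 23.3%. The patterns of single genes across libraries are given as a description. Over all genes tested, the groups did not overlap for 29.0% with all 6 libraries and for 43.0% without BLM3. Il1b was higher in all 3 knockout libraries than in BLM1 and BLM2, and far higher still in BLM3. Tnf, Il1a and Il1rn were lower in every knockout library than in any wild-type library, and again were highest in BLM3. Both TNF receptor genes and Traf2 varied little in all 6 libraries.

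**Figure D1:**
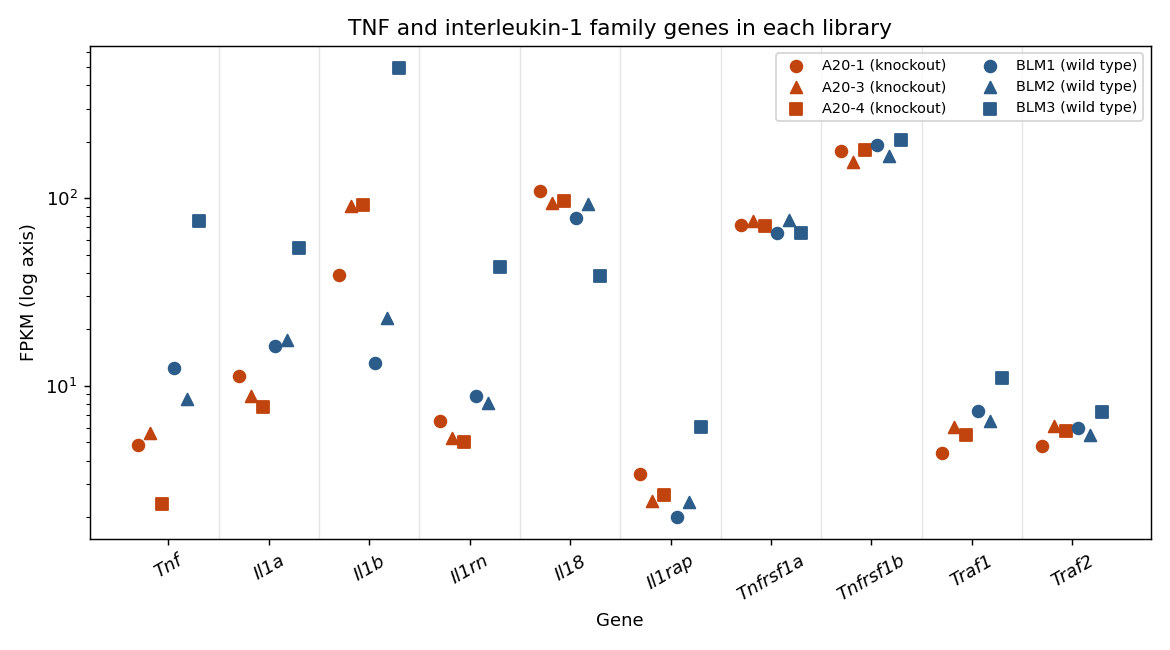
FPKM of each of the 10 genes (log axis) in the 3 knockout libraries (orange) and the 3 wild-type libraries (blue), 1 point per library. BLM3, the blue square, lies at 75.2 for Tnf and 491 for Il1b, above all other libraries, and at 38.4 for Il18, below them, while the 6 points of Tnfrsf1a lie between 65.2 and 76.6.

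The start regions of the genes that varied most and of both TNF receptors are shown so that the letters near their starts can be compared. They are the 250 bases before the first RefSeq start listed for each gene (GRCm38.p6), 5′ to 3′ on the gene's own strand, with matches to TATAAA (the TATA box) and TGANTCA (the AP-1 motif) in capitals, searched on both strands.
Tnf, minus strand, chr17:35202008-35202257: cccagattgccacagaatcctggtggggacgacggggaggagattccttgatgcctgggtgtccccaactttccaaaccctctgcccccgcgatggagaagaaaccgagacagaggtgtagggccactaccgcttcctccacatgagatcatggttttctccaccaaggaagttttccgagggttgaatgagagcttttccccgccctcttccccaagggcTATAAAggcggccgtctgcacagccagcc
Il1b, minus strand, chr2:129371140-129371389: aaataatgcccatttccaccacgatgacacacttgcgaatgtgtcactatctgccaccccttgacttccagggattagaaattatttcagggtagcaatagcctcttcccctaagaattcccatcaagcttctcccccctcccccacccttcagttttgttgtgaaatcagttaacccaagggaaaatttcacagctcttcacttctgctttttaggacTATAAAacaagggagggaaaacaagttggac
Il1a, minus strand, chr2:129309973-129310222: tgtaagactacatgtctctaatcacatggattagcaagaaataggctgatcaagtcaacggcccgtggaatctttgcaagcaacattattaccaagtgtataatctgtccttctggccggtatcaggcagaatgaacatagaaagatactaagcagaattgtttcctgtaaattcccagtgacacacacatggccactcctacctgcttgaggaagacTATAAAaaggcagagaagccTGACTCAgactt
Il1rn, plus strand, chr2:24336610-24336859: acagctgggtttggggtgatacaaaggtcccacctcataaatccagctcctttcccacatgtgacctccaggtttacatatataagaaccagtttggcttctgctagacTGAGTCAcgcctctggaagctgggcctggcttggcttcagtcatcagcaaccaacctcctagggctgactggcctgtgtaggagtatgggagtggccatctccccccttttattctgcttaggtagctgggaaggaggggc
Tnfrsf1a, plus strand, chr6:125349473-125349722: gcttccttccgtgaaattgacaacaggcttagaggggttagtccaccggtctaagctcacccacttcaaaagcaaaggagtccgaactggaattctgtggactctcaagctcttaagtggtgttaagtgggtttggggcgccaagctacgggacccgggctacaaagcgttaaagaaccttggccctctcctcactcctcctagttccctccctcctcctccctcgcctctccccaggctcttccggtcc
Tnfrsf1b, minus strand, chr4:145246871-145247120: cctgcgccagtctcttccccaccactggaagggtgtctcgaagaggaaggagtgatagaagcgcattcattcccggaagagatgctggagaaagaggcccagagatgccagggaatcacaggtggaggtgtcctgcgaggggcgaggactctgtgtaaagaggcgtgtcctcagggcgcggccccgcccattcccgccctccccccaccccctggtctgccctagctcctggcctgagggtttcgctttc

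All 10 genes matched the RefSeq promoter table, with 12 starts in all, 3 of them for Il1rn. Tnf, Il1b and Il1a each held TATAAA on the gene's strand, beginning 29, 31 and 32 bases before the start. A match beginning 35 to 25 bases before the start was found in 1.76% of the 32817 promoters of the same length. That window was set after the matches of these genes were seen. Neither TNF receptor gene held TATAAA anywhere in the 250 bases, nor did Il1rn. The AP-1 letters were found in Il1a and at the first start of Il1rn, and in 6.75% of all promoters. The kB consensus, the usual NF-kB motif, had 0 matches at the 12 starts and was found in 3.90% of all promoters, which says only that these letters are not in these windows. No binding was measured, so the matches are a description of the letters.

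Tnf encodes the cytokine itself, on chromosome 17 (GRCm38, 35199381 to 35202007, minus strand). Its FPKM was 4.84, 5.59 and 2.35 in the knockout libraries, against 12.4, 8.47 and 75.2 in the wild-type libraries. Every knockout library lay below every wild-type library, and BLM3 was 6.07 times the next highest library. The means were 4.26 ± 1.70 FPKM in the knockout and 32.0 ± 37.4 in the wild-type libraries (SD, n = 3 each). On the log2(FPKM + 1) scale the difference (knockout minus wild type) was -2.08 ± 0.77 (SE, limma adjusted p = 0.202). Without BLM3 it was -1.16 ± 0.31, with a 95% interval of -1.90 to -0.41 (limma adjusted p = 0.0947).

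Il1a and Il1b lie next to each other on chromosome 2, both on the minus strand, with 54598 bases between the end of Il1a (129299610 to 129309972) and Il1b (129364570 to 129371139). Il1a encodes IL-1 alpha, which is active without caspase-1. It was at 11.3, 8.80 and 7.72 FPKM in the knockout libraries, against 16.3, 17.5 and 54.5 in the wild-type libraries. The groups did not overlap, and BLM3 was 3.11 times the next highest library. The log2 difference was -1.36 ± 0.45 (SE, limma adjusted p = 0.173) with 6 libraries. Without BLM3, which left BLM1 and BLM2 as the wild type, it was smaller, at -0.82 ± 0.16 (SE), and passed the test (limma adjusted p = 0.0482). Il1a was not called when any other library was left out (limma adjusted p of 0.167 to 0.417).

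Il1b, which encodes IL-1 beta, did not follow its neighbour. Its FPKM was 38.9, 91.1 and 92.2 in the knockout libraries, against 13.2, 23.1 and 491 in the wild-type libraries. All knockout libraries lay above BLM1 and BLM2 and below BLM3, so the groups overlapped. The means were 74.1 ± 30.5 in the knockout and 175.9 ± 273 in the wild-type libraries (SD, n = 3 each), so the FPKM means and the mean log2 difference of 0.34 ± 1.28 (SE, limma adjusted p = 0.899) point opposite ways. Its 95% interval ran from -2.73 to 3.41. Without BLM3 the knockout mean was 4.08 times the mean of BLM1 and BLM2, and the log2 difference was 1.92 ± 0.41 (SE), which missed the threshold (limma adjusted p = 0.0588).

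Neutrophil RNA was examined beside Il1b, since neutrophils also make this cytokine. In BLM3 S100a9 was at 1535 FPKM, Csf3r at 185 and Retnlg at 103, against at most 24.8, 16.7 and 1.05 in the other 5 libraries. Ly6g, a defining neutrophil marker, was at 2.25 FPKM in BLM3, at 0.0752 in A20-1 and at 0 in the other 4 libraries. In all, 9 of the 11 neutrophil markers in the table were highest in BLM3, and their part in the high Il1b, Il1a, Tnf and Il1rn levels of that library was not tested. Between the knockout libraries and BLM1 and BLM2 the summed neutrophil markers overlapped (130.1 to 180.9 and 156.8 to 173 FPKM), but single markers differed in opposite directions. Without BLM3, S100a8 fell (log2 difference -1.25, limma adjusted p = 0.0185) and Ltf rose (1.25, limma adjusted p = 0.0471), and Trem1 was higher in every knockout library with no call (0.97, limma adjusted p = 0.140). Within the knockout group A20-1, with the lowest Il1b, was lowest for 8 of the 11 markers and highest for Ltf and Ly6g. The summed markers of A20-1 and A20-4 were 130.1 and 132.5 FPKM, and their Il1b was at 38.9 and 92.2. Within these sums S100a9 was at 10.2 and 19.0 and Trem1 at 10.5 and 16.3, but Ltf at 35.5 and 20.9 and Mmp8 at 31.1 and 26.2. The part of neutrophil RNA in the Il1b levels of the knockout libraries was not tested. In bulk RNA a change in the number of cells of a type and a change in RNA per cell cannot be told apart.

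**Figure D2:**
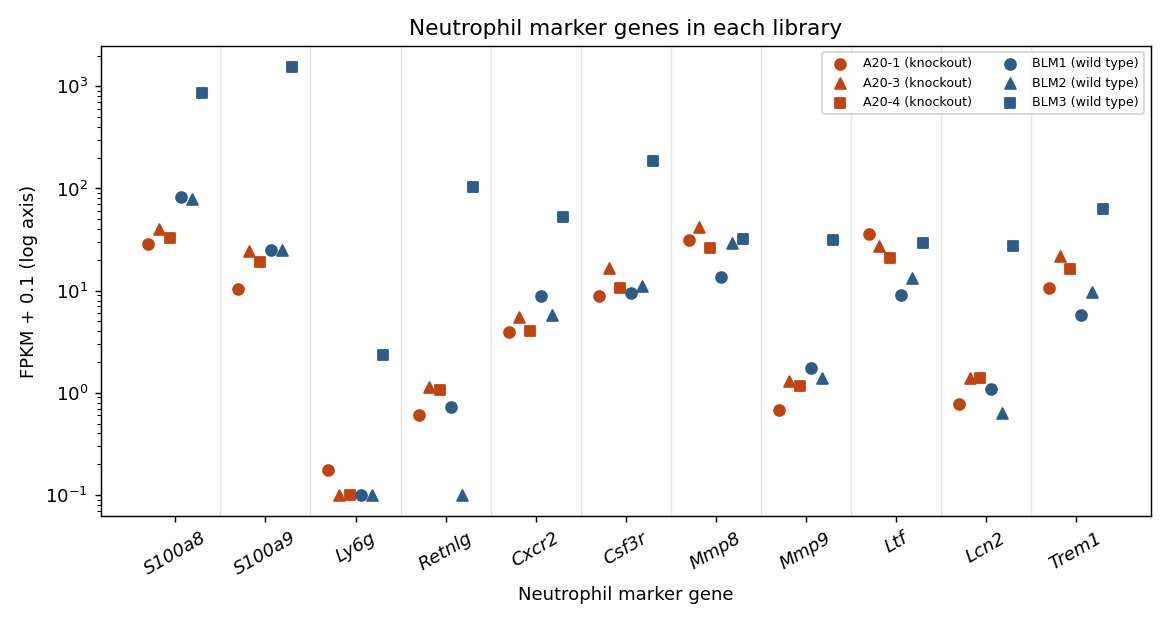
FPKM + 0.1 (log axis) of 11 neutrophil marker genes in the 3 knockout libraries (orange) and the 3 wild-type libraries (blue), 1 point per library. BLM3 is highest for 9 of the 11, reaching 1535 FPKM for S100a9, where the other 5 libraries lie between 10.2 and 24.8. For S100a8 those 5 libraries lie between 28.3 and 82.6.

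Il1rn, on chromosome 2 (24336853 to 24351494, plus strand), encodes the IL-1 receptor antagonist. Its FPKM was 6.52, 5.29 and 5.02 in the knockout libraries, against 8.82, 8.14 and 42.9 in the wild-type libraries. The groups did not overlap, with the knockout libraries lower and BLM3 at 4.87 times the next library. The log2 difference was -1.26 ± 0.59 (SE, limma adjusted p = 0.284), and -0.53 ± 0.14 without BLM3 (limma adjusted p = 0.0887). The antagonist and Il1b thus ran in opposite directions between the knockout libraries and BLM1 and BLM2, while both were high in BLM3.

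Il18, on chromosome 9 (50554827 to 50581840, plus strand), encodes IL-18 and had a pattern of its own. It was at 109.7, 94.5 and 96.9 FPKM in the knockout libraries, against 78.1, 93.2 and 38.4 in the wild-type libraries. Every knockout library was above every wild-type library, though A20-3 exceeded BLM2 only narrowly, and BLM3 was the lowest of all. The log2 difference was 0.61 ± 0.32 (SE, limma adjusted p = 0.327), and 0.23 ± 0.12 without BLM3 (limma adjusted p = 0.320). The 11 alveolar macrophage markers that were lowest in BLM3 included Pparg at 13.4 FPKM and Plet1 at 113, and not Marco, Fabp4 or Lpl. The sum of 10 lung epithelial markers had the same split as Il18, at 399, 396 and 313 FPKM in the knockout libraries, against 208, 220.5 and 80.6 in the wild-type libraries. In that sum Scgb1a1, a club cell gene, was the largest term in 5 libraries, and 7 of the 10 markers were lowest in BLM3. Without BLM3, Krt8 and Krt18 of this list fell (limma adjusted p = 0.0268 and 0.0114) and 0 rose, where 2.50% and 1.35% of all genes tested did so. The part of either marker list in the Il18 level was not tested.

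**Figure D3:**
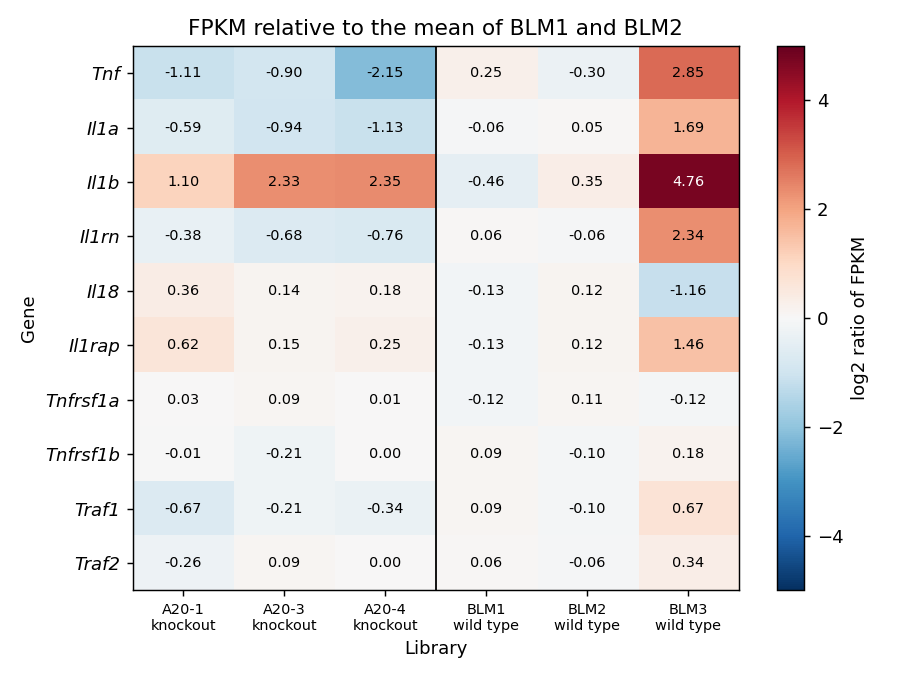
Log2 ratio of each gene's FPKM to its mean in BLM1 and BLM2, for the 3 knockout libraries (left of the line) and the 3 wild-type libraries (right). Il1b is the only row of the 10 with log2 ratios above 1 in all knockout libraries (1.10, 2.33 and 2.35), and BLM3 reaches 4.76 for Il1b and -1.16 for Il18.

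Among the receptors, Tnfrsf1a, whose product carries the death domain that starts TNF signalling in most cells, was the steadiest. Its FPKM was 72.1, 75.5 and 71.2 in the knockout libraries, against 65.2, 76.6 and 65.4 in the wild-type libraries, with overlapping groups. The log2 difference was 0.08 ± 0.11 (SE, limma adjusted p = 0.697), with a 95% interval of -0.18 to 0.34. Tnfrsf1b, whose product lacks a death domain and is most abundant on immune cells, was at 179, 155.1 and 179.9 FPKM in the knockout libraries, against 191.6, 167.6 and 203 in the wild-type libraries. Its groups overlapped too, and the log2 difference was -0.13 ± 0.12 (SE, limma adjusted p = 0.588), with a 95% interval of -0.43 to 0.17. BLM3, so far from the rest for the ligands, was within 1.13 times the mean of BLM1 and BLM2 for Tnfrsf1b and at 0.923 times it for Tnfrsf1a.

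Il1rap, the accessory chain shared by the receptors for IL-1, IL-33 and IL-36, was low. Its FPKM was 3.39, 2.45 and 2.61 in the knockout libraries, against 2.01, 2.40 and 6.04 in the wild-type libraries. The groups overlapped because of BLM3, above which no library lay. The log2 difference was -0.13 ± 0.32 with 6 libraries (SE, limma adjusted p = 0.842) and 0.25 ± 0.15 without BLM3 (limma adjusted p = 0.370), so its sign rested on that library.

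The adaptors differed from each other. Traf1, an adaptor with no RING domain whose gene is itself induced by NF-kB, was at 4.37, 6.01 and 5.47 FPKM in the knockout libraries, against 7.38, 6.49 and 11.0 in the wild-type libraries. The knockout libraries were all lower, and the log2 difference was -0.54 ± 0.20 (SE, limma adjusted p = 0.207), and -0.34 ± 0.15 without BLM3 (limma adjusted p = 0.232). Traf2, the adaptor that brings the cIAP ubiquitin ligases to TNF receptors, was at 4.77, 6.10 and 5.73 FPKM in the knockout libraries, against 5.95, 5.50 and 7.23 in the wild-type libraries. Its groups overlapped (log2 difference -0.14 ± 0.14, SE, limma adjusted p = 0.579, 95% interval -0.47 to 0.18).

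Counted over the 10 genes, 4 had knockout values entirely below the wild-type values (Tnf, Il1a, Il1rn and Traf1) and 1 entirely above (Il18), where 13.1% and 15.9% of all genes tested did so. In either direction these were 5 of 10, against 29.0% of all genes. Without BLM3, 4 lay below and 3 above (Il1b, Il18 and Il1rap), where 19.6% and 23.5% of all genes did, or 43.0% in either direction. Il18 and Il1rap were above only narrowly, at 94.5 and 2.45 FPKM in A20-3, against 93.2 and 2.40 in BLM2. BLM3 was the highest library for 8 of the 10 genes, against 26.5% of all genes tested, and the lowest for 1, Il18, against 27.6%. It was over 3 times the next library for 4 of the 10 (Tnf, Il1a, Il1b and Il1rn), against 1.61% of all genes. The median log2 difference of the 10 genes was -0.14 with all libraries and -0.06 without BLM3, beside 0.02 and 0.03 over all genes tested.

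**Figure D4:**
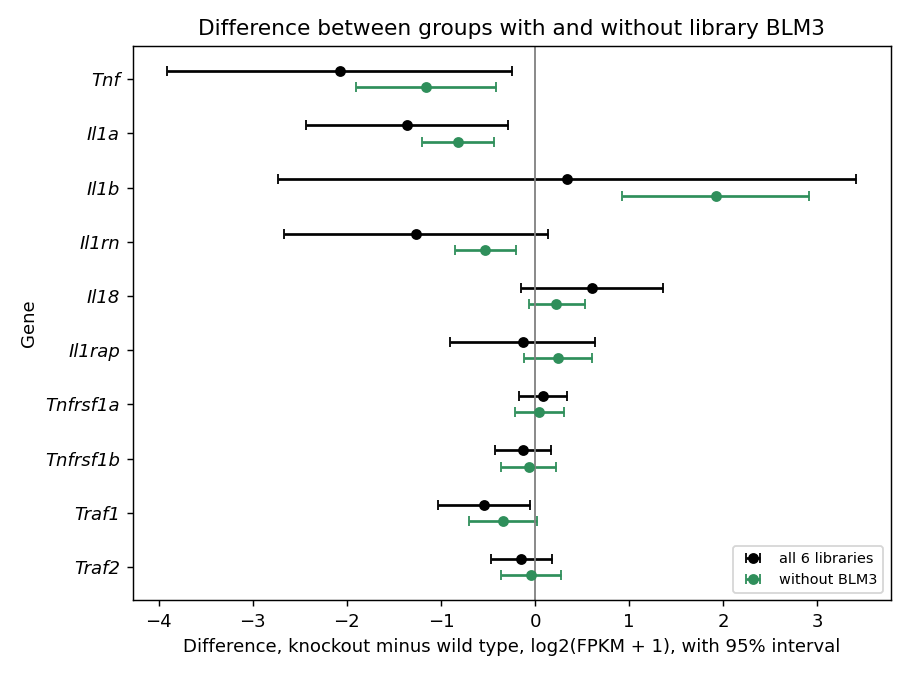
Difference between the knockout and wild-type groups, as log2(FPKM + 1) in the knockout minus that in the wild type, with its 95% interval from limma, for each of the 10 genes with all 6 libraries (black) and without BLM3 (green). For Il1b the interval runs from -2.73 to 3.41 with BLM3 and lies between 0.93 and 2.91 without it, and leaving out BLM3 changes those of Tnfrsf1a, Tnfrsf1b and Traf2 little.

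The balance between the genes was read within each library, as ratios of FPKM, which any scaling of a whole library leaves alone. The ratio of Il1b to Tnf was 8.04, 16.3 and 39.3 in the knockout libraries, against 1.07, 2.72 and 6.54 in the wild-type libraries. This was the only one of 5 ratios examined in which the groups did not overlap. The ratio of Il1rn to Il1b, antagonist to agonist, was 0.167, 0.0580 and 0.0545 in the knockout libraries, against 0.668, 0.353 and 0.0874 in the wild-type libraries. BLM3 therefore lay among the knockout libraries here. Il1b was 3.46, 10.4 and 11.9 times Il1a in the knockout libraries, against 0.812, 1.32 and 9.01 times Il1a in the wild-type libraries. Tnfrsf1b was 2.06 to 2.53 times Tnfrsf1a in the knockout and 2.19 to 3.11 times in the wild-type libraries. These ratios were chosen with earlier results known and carry no test.

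**Figure D5:**
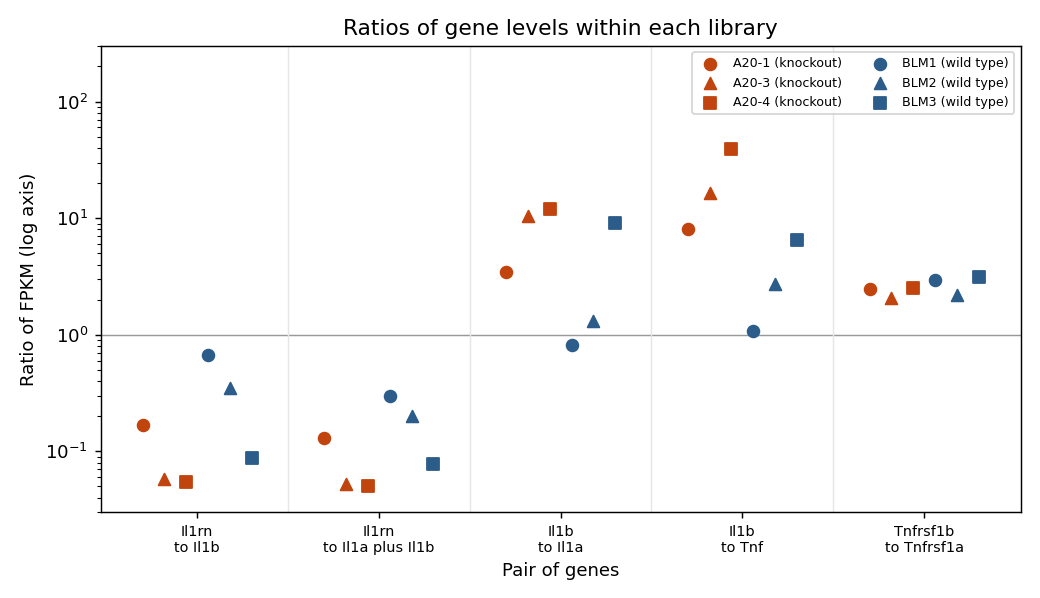
Ratio of FPKM of 5 pairs of genes (log axis) within each knockout library (orange) and wild-type library (blue), 1 point per library. The ratio of Il1b to Tnf is 8.04 to 39.3 in the knockout and 1.07 to 6.54 in the wild-type libraries, and the other 4 ratios overlap between the groups.

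The genes that most resembled a member were named by the highest Pearson correlation of log2(FPKM + 1) over the 6 libraries, a description of few points among which BLM3 is the extreme one. For Tnf they were Fam46c, Cd300lf and Bcl6 (0.994 to 0.995). For Il1b they were F10, which encodes coagulation factor X, the MAP kinase phosphatase gene Dusp1 and Lilra6 (0.992 to 0.998). Dusp1 was at 15.5, 36.7 and 30.8 FPKM in the knockout libraries, against 8.13, 9.61 and 113 in the wild-type libraries, the same order of groups as Il1b. Reads of Lilra6 may be shared with close relatives. For Il1rn they were Tarm1, Hmga1 and Zcwpw1, each at 0.998. For Il18 they were Nagpa, Sh3bgrl2 and Dcun1d2 (0.994 to 0.998), and Nagpa was at 16.4 FPKM in BLM3 beside 28.7 to 37.1 elsewhere.

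Among other ligands and antagonists of the 2 families, 13 of 23 listed genes were tested. Of these, 1 rose and 0 fell, where 0.252% and 0.851% of all genes tested did so. The median log2 difference was 0.06. The gene that rose was Fasl, which encodes the death ligand FasL, at 5.94 ± 0.842 FPKM in the knockout and 2.40 ± 0.431 in the wild-type libraries (SD, n = 3 each). Its FPKM was 5.04, 6.07 and 6.71 in the knockout libraries, against 2.81, 1.95 and 2.42 in the wild-type libraries. The difference was 1.03 ± 0.15 on the log2 scale (SE, limma adjusted p = 0.0373). It also passed without BLM3 (1.04, limma adjusted p = 0.0318), and not when one of the other 5 libraries was left out (limma adjusted p of 0.0653 to 0.160). Fasl is typical of cytotoxic lymphocytes. The summed T, natural killer and B cell markers were 150.4 to 169.6 FPKM in the knockout and 103 to 333 in the wild-type libraries. Without BLM3, 2 of the 12 tested markers rose and 0 fell, where 1.35% and 2.50% of all genes tested did so. The 2 markers were Cd8a (log2 difference 1.22, limma adjusted p = 0.0273) and Nkg7 (0.73, limma adjusted p = 0.0274), both genes of cytotoxic lymphocytes. Of the 12 differences without BLM3, 6 were positive and 6 negative. Gzma (0.43, limma adjusted p = 0.599) and Klrb1c (0.20, limma adjusted p = 0.493) of the same list were not called. With all 6 libraries 0 of the 12 were called, against 1.10% of all genes (limma adjusted p = 0.404 for Cd8a and 0.589 for Nkg7). Cd8a was at 23.5, 32.5 and 36.1 FPKM in the knockout libraries, against 12.5, 12.3 and 38.8 in the wild-type libraries. The part of these markers in the Fasl level was not tested. Tnfsf13b, which encodes the B cell survival factor BAFF, was at 2.32 ± 0.0755 FPKM in the knockout and 1.43 ± 0.485 in the wild-type libraries (limma adjusted p = 0.196), and Tnfsf10, which encodes TRAIL, at 4.40 ± 1.04 and 2.90 ± 1.04 (adjusted p = 0.278).

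Of the other TNF receptor superfamily genes, 19 of 26 listed were tested, and 0 were called (limma, with all libraries and without BLM3). Over all genes tested 1.10% were called with all libraries and 3.84% without BLM3, so a list of this size would hold few calls. Of these 17 had a negative and 2 a positive difference, or 15 and 4 without BLM3. Over all 10696 genes tested, 5033 were negative and 5663 positive with all libraries. The median of the list was -0.48, or -0.28 without BLM3, beside 0.02 and 0.03 over all genes. BLM3 was the highest library for 11 of the 19, against 26.5% of all genes. Knockout values lay entirely below wild-type values for 9 of the 19, where 13.1% of all genes did. The smallest p belonged to Tnfrsf4, which encodes OX40, at 3.04 ± 0.214 FPKM in the knockout and 6.41 ± 1.45 in the wild-type libraries (SD, n = 3 each, limma adjusted p = 0.0728). It was called without BLM2 (log2 difference -1.03, limma adjusted p = 0.0310). Tnfrsf4 was not called when any other library was left out (limma adjusted p of 0.0611 to 0.269). Cd40, the receptor by which T cells activate macrophages, was at 0.943 ± 0.303 and 2.18 ± 0.729 FPKM (knockout and wild type, adjusted p = 0.155), and Tnfrsf25, which encodes death receptor 3, at 1.75 ± 0.848 and 4.79 ± 1.95 (adjusted p = 0.155).

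The rest of the IL-1 receptor family, with 6 of 9 listed genes tested, also had 0 called genes with all libraries and without BLM3, and a median log2 difference of -0.73, or -0.31 without BLM3. Il1r1, the signalling receptor for IL-1, was at 1.35, 2.03 and 0.994 FPKM in the knockout libraries, against 3.94, 2.51 and 7.14 in the wild-type libraries. The groups did not overlap, and the log2 difference was -1.10 ± 0.32 (SE, limma adjusted p = 0.138), and -0.78 without BLM3 (limma adjusted p = 0.111). Il1r2, the decoy receptor that binds IL-1 without signalling and is abundant on neutrophils, reached 75.6 FPKM in BLM3 and was at most 2.54 in the other 5 libraries. Its log2 difference was -2.01 ± 1.19 (SE, limma adjusted p = 0.377), or -0.52 without BLM3. Sigirr, an inhibitory member of the family, was at 2.12 ± 0.243 FPKM in the knockout and 4.78 ± 2.46 in the wild-type libraries (adjusted p = 0.211).

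All 23 listed genes of proximal TNF receptor signalling were tested and 0 were called (limma, with all libraries and without BLM3), where 1.10% of all genes were called with all libraries, so a list of this size would hold few calls at that share. The median difference was -0.05. Tab1, a regulator of the kinase TAK1, was at 5.35 ± 0.192 FPKM in the knockout and 7.87 ± 0.585 in the wild-type libraries (SD, n = 3 each, limma adjusted p = 0.0829). Map3k5, which encodes the stress kinase ASK1, was at 21.1 ± 0.648 and 15.3 ± 1.69 FPKM (adjusted p = 0.109), and Ikbkb, which encodes the kinase of IkB, at 10.2 ± 1.27 and 8.08 ± 0.456 (adjusted p = 0.226). For IL-1 receptor signalling 12 of 12 genes were tested and 0 called in the same fits, with a median of 0.08. Knockout values lay entirely above wild-type values for 3 of the 12 and below for 0, where 15.9% and 13.1% of all genes did so. There Map3k3 was at 29.4 ± 5.91 and 18.7 ± 0.707 FPKM (knockout and wild type, adjusted p = 0.107), the ubiquitin ligase gene Peli2 at 4.36 ± 0.640 and 2.69 ± 0.750 (adjusted p = 0.178), and the kinase gene Irak4 at 12.8 ± 0.399 and 10.6 ± 1.56 (adjusted p = 0.294).

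Of 19 tested genes that process and release the cytokines, 1 fell and 0 rose, where 0.851% and 0.252% of all genes did so. The median was -0.03. Pycard, which encodes the inflammasome adaptor ASC, fell to 13.9 ± 1.11 FPKM in the knockout libraries, against 23.7 ± 2.31 in the wild-type libraries (SD, n = 3 each). Its log2 difference was -0.73 ± 0.12 (SE, limma adjusted p = 0.0487). The call was at the threshold, was lost when one of the 5 libraries other than BLM3 was left out (limma adjusted p of 0.0873 to 0.196), and held without BLM3 (0.0387). Aim2, the DNA sensor of an inflammasome, was at 11.2 ± 2.60 and 21.9 ± 4.06 FPKM (knockout and wild type, adjusted p = 0.0889), and Nlrc4, another sensor, at 9.54 ± 1.11 and 6.66 ± 1.15 (adjusted p = 0.167).

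Among 15 genes that control the decay and translation of cytokine mRNA, 0 were called with all libraries, against 1.10% of all genes. The median was 0.02. Without BLM3, 1 rose, where 1.35% of all genes tested did so. The gene was Rc3h1, which encodes Roquin-1, a protein that promotes decay of Tnf mRNA. It was at 8.84 ± 0.317 FPKM in the knockout and 5.78 ± 0.603 in the wild-type libraries (SD, n = 3 each). The log2 difference was 0.54 with all libraries (limma adjusted p = 0.0747) and 0.60 without BLM3 (limma adjusted p = 0.0439). Zfp36l2, an mRNA decay factor of the tristetraprolin family, was at 207.1 ± 25.0 and 123.6 ± 18.8 FPKM (knockout and wild type, adjusted p = 0.0857), and the splicing and decay factor gene Khsrp at 35.9 ± 2.69 and 27.3 ± 2.09 (adjusted p = 0.133).

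Of 22 tested genes that TNF or IL-1 is known to induce through NF-kB, 0 were called with all libraries, against 1.10% of all genes. Their median log2 difference was -0.51, or 0.03 without BLM3. BLM3 was the highest library for 18 of the 22, against 26.5% of all genes tested. Knockout values lay entirely below wild-type values for 7 of the 22 and above for 2, where 13.1% and 15.9% of all genes did so. Bcl2a1b, a survival gene whose close copies may share its reads, was at 161.4 ± 7.44 FPKM in the knockout and 224 ± 26.5 in the wild-type libraries (SD, n = 3 each, limma adjusted p = 0.118). The NF-kB subunit gene Relb was at 9.09 ± 0.323 and 14.4 ± 3.53 FPKM (knockout and wild type, adjusted p = 0.145), and the monocyte chemokine gene Ccl2 at 1.32 ± 0.632 and 23.3 ± 28.7 (adjusted p = 0.155). Without BLM3, 1 of the 22 rose, where 1.35% of all genes tested did so. The gene was Tnfaip2, with a log2 difference of 0.79 (limma adjusted p = 0.0276), which was named after its values were seen.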

How the data were processed

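RNA-seq of 6 libraries was analysed, 3 per group. The deposited table holds FPKM per gene, per the file headers, from libraries made with a stranded kit from 1 ug of total RNA, per the labels' protocols. Per the submitters' processing notes the genome was GRCm38, and coordinates of all 10 members were the same in GENCODE M21. For the aligner, the quantifier and the use of strand, nothing is given in the sources used here. Every listed gene had a mean of at least 0.5001 FPKM in its higher group. Low values showed no steps of whole reads, so depth is unknown and no counting intervals are given. FPKM sums ran from 266094 to 294525 per library.

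Columns were assigned to groups by name: those named A20 to the knockout, and those named only for the exposure to wild type, as the labels name no other group. The minimum mean to be tested was 1 FPKM (10696 genes with all 10 members, 1093 left out). Values were compared on log2(FPKM + 1), a pseudocount of 1 that understates changes of low genes, by limma 3.58.1 in R 4.3.3 (eBayes with trend, two-sided, Benjamini-Hochberg over all genes tested, threshold 0.05). The fit was tested on simulated data with independent genes and no outlying library, so that check does not cover a library such as BLM3. Members and lists were chosen with earlier results of these data known. Named genes are the members, the 3 smallest p in each pathway list, the 3 genes most like Tnf, Il1b, Il1rn and Il18, Tnfaip3, and markers. Alternatives were pseudocounts of 0.1 and 5, no filter, a minimum mean of 5 FPKM, TPM, quantile normalization, array weights, no variance trend, and leaving out each library.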

Additional observations from a re-analysis of the deposited data

How the results depend on the processing

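The count of genes called over the table, 118 with all libraries, was 75 with a minimum mean of 5 FPKM and 1934 with array weights, which gave BLM1 a weight of 6.09 and BLM3 one of 0.229, and it ran from 0 (without A20-3, with 1694 genes at an unadjusted p under 0.05) to 411 (without BLM3) when each library was left out. It was 35 without A20-1, 14 without A20-4 and 4 without BLM1. TPM put the median difference of all genes at 0.10, against 0.02, and moved the share of higher calls to 39.0% (41 higher, 64 lower), against 22.9% (27 higher, 91 lower). Array weights moved that share to 48.7%. The count of members called, 0 with all libraries, was 2 with array weights, under which 18.1% of all genes were called, namely Tnf (-1.51, limma adjusted p = 0.0395) and Il1a (-0.86, adjusted p = 0.0462), and 0 to 1 over the left-out libraries. The difference of Il1a ran from -1.66 to -0.82, that of Il1b from -0.64 (without BLM1) to 1.92 (without BLM3), turning sign also without BLM2 (-0.26), and that of Il1rap from -0.37 to 0.25, with 0.27 under array weights. That of Tnfaip3 ran from -0.141 (without BLM2) to 1.275 (without BLM3). The cause of these moves was not tested. List medians moved for other ligands to -0.50 with a minimum mean of 5 FPKM, for IL-1 signalling to 0.17 under TPM and to between -0.018 and 0.197 over left-out libraries, and for processing and release to 0.054 under TPM, -0.12 with array weights and between -0.139 and -0.006 over left-out libraries. Pycard was not called with pseudocounts of 0.1 or 5, under TPM, with quantile normalization or without the variance trend (limma adjusted p of 0.0502 to 0.0531). No paired analysis was possible because the sample titles name no pairs of libraries across the groups. The numbers of the A20 columns (1, 3 and 4) are also not the replicate numbers of the titles.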
